A study of Homo sapiens
Mus musculus and Mus musculus and Homo sapiens with 3 samples.

Results

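The cells described here are collagen-rich cells found in stem cell cultures that were differentiated towards motor neurons. Members were chosen by measured values: a kept cell was a member when it held at least 2 unique molecules (UMIs) of COL1A2, at least 2 UMIs of COL3A1 and 0 UMIs of SOX2. COL1A2 and COL3A1 encode chains of the collagens I and III, and SOX2 encodes a transcription factor of neural progenitors. The counts of these 3 genes are therefore a description and were not tested. By this rule 227 of 8683 kept cells were members. In the study, human and mouse pluripotent stem cells carried a lentiviral barcode downstream of a CAGGS-driven GFP. They were differentiated in vitro towards motor neurons as embryoid bodies, and GFP+ cells were sorted and profiled by droplet 3' single-cell RNA-seq on several days that the files do not tell apart. The NCRM1 human cells (human replicate 1) and C57BL/6 mouse ES cells (mouse replicate 1) were run together in a single mixed library. The RUES1 human cells, labelled as iPS cells (human replicate 2), and C57BL/6 mouse ES cells (mouse replicate 2) had a library each. All received the same differentiation treatment, and each human replicate is a single line, so line and replicate cannot be told apart. Members are compared below with all other kept cells of their own file, called others.

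Mesenchyme is loose embryonic tissue whose cells secrete a matrix of fibrillar collagens and proteoglycans. It comes from mesoderm, including the somites beside the spinal cord, and in the head also from the neural crest. The ventral part of a somite, the sclerotome, expresses PAX1, PAX9 and NKX3-2 in response to SHH and gives rise to vertebral cartilage and, in part, to the meninges and tendons. Cultures directed to the spinal cord are treated with signals that also pattern the somites.

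Members made up 5.19% of kept cells in human replicate 1 (121 of 2332, exact 95% interval 4.32 to 6.17) and 4.26% in human replicate 2 (78 of 1829, 3.39 to 5.29). In mouse replicate 1 there were 0 members among 1816 cells, which allows a share of up to 0.165%, and in mouse replicate 2 there were 28 among 2706, a share of 1.03% (0.689 to 1.49). The intervals cover counting error only. The human mean was 4.73% ± 0.653 and the mouse mean 0.517% ± 0.732 (SD, n = 2 each), and an exact two-sided permutation test gave p = 0.333, the smallest that 2 against 2 allow. Within the members, the lower of the COL1A2 and COL3A1 counts was exactly 2 UMIs in 27, 10 and 1 cells of human replicate 1, human replicate 2 and mouse replicate 2. Just outside, 26, 11 and 9 SOX2-free cells had a lower count of exactly 1 UMI. Members had a median of 12425, 16163 and 21509 UMIs in these 3 files, against 11131, 16757 and 29617.5 in others. The barcodes found in both tables of the mixed library were dropped before members were chosen, so no member could be shared there. Between the other pairs of files no barcode of a member was shared. Scrublet marked 1 of the 227 members as a doublet. It marked 0.429% of cells in human replicate 1, which is too few to say that it found the doublets there.

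**Figure D1:**
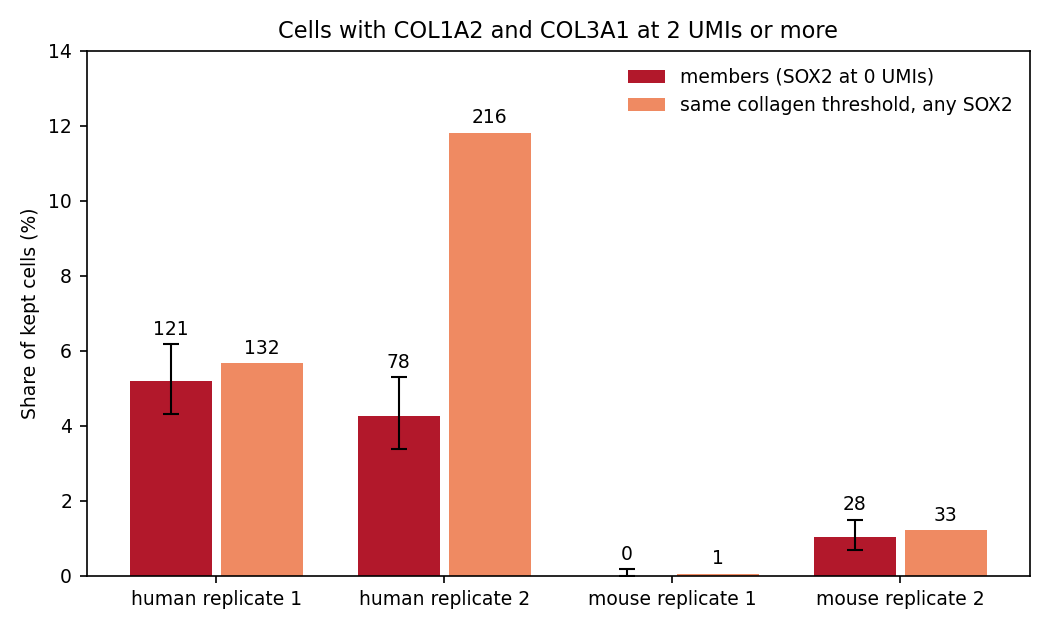
Share of kept cells (%) in each file that passed the collagen threshold, with SOX2 at 0 UMIs (members, dark bars, with exact 95% intervals) and with any SOX2 count (light bars); numbers above the bars are cells. The light bar is far above the dark one only in human replicate 2, where 216 cells passed the collagen threshold and 78 of them were members.

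The 3 marker genes that the rule did not read, LUM, PCOLCE and TWIST1, were all high in members of both human replicates. LUM encodes lumican, a proteoglycan that orders collagen fibrils. Levels are given as CPM, the gene's UMIs over all UMIs of the summed cells, scaled to 1000000. It was at 434 and 704 CPM in members of human replicates 1 and 2, against 7.87 and 77.1 CPM in others. PCOLCE, which speeds the trimming of procollagen, was at 639 and 480 CPM in members and 23.8 and 62.4 CPM in others. TWIST1, a transcription factor of mesenchyme, was at 224 and 770 CPM in members and 5.71 and 90.1 CPM in others. In both replicates each of these 3 markers was higher in members. The markers were chosen with earlier results known, and genes that go with collagen are not independent of the rule. Their levels therefore describe the collagen-rich, mesenchyme-like cells and do not test that label. The others of human replicate 2 had higher marker levels than those of human replicate 1, and they include the SOX2-positive collagen-rich cells described further on.

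Across all genes, UMIs were summed over members and over others of each human replicate and tested with edgeR, with the replicate as a block. Of 13985 genes 23.1% passed at an adjusted p under 0.05 (Benjamini-Hochberg): 10.7% were higher (1493) and 12.5% lower (1743) in members, and the median log2 fold change was -0.04. The test has 2 replicates and 1 residual degree of freedom, and it borrows the spread from other genes (94.2 prior degrees of freedom), so its p-values rest on these 2 lines alone. DESeq2 called 751 genes higher and 616 lower, and edgeR without the block called 0, with 1723 genes at an unadjusted p under 0.05. The counts below are edgeR's with the block. The genes of a list were chosen with earlier results known, so a count is read beside these background shares, and nothing is concluded from it about the list as a whole.

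Matrix genes rose in nearly every case, beside 10.7% of all genes. Of 10 fibrillar collagens and partners tested, 9 rose and 0 fell, with a median log2 fold change of 2.70. Of 16 proteoglycan and matrix genes 14 rose and 0 fell (median 2.29), and of 13 collagen-processing genes 11 rose and 1 fell (median 1.25). COL6A3, a chain of the beaded collagen VI, had the largest fold change of the 15 highest genes taken by the fixed rule. It was at 59.8 and 82.6 CPM in members and 1.26 and 3.15 CPM in others (log2 fold change 5.16 ± 0.23, SE). FMOD, the proteoglycan fibromodulin, was at 51.4 and 53.3 CPM in members and 1.52 and 2.39 CPM in others. COL1A1, the partner chain of COL1A2 in collagen I, was at 222 and 297 CPM in members and 7.84 and 28.0 CPM in others. LOX, which cross-links collagen, was at 59.1 and 36.0 CPM in members and 3.23 and 4.10 CPM in others. LOXL1, which acts on elastin, was the processing gene that fell, to 28.3 and 18.0 CPM in members against 83.4 and 30.0 CPM in others. COL14A1 did not pass the test, at 0.643 and 3.0 CPM in members and 2.4 and 3.90 CPM in others.

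The other genes among the 15 highest included the proteoglycans DCN and BGN, CD248 (endosialin, a surface protein of stromal cells), CYP1B1 (a monooxygenase), MXRA5, ISLR, TMEM119, KIAA1755, ZIC1 and MEOX2. BGN was at 193 and 81.1 CPM in members and 8.03 and 5.51 CPM in others, a log2 fold change of 4.38 ± 0.17 (SE). ZIC1, a zinc finger factor of dorsal neural tube and of dorsal somite and meningeal cells, was at 41.8 and 146 CPM in members and 0.38 and 11.6 CPM in others. The receptors for PDGF, a mitogen of mesenchyme, rose together: PDGFRA was at 55.3 and 64.6 CPM in members and 1.48 and 7.93 CPM in others. PDGFRB was at 50.1 and 74.3 CPM in members and 3.42 and 8.16 CPM in others. All 6 tested genes of the receptor and surface list rose, beside 10.7% of all genes higher and 12.5% lower. Of 20 mesenchymal transcription factors 13 rose and 2 fell, which were MSX1 and ZEB2 (ZEB2 was not called by DESeq2). MSX1, known from limb and dorsal neural tissue, was at 3.21 and 3.75 CPM in members and 30.9 and 39.8 CPM in others.

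**Figure D2:**
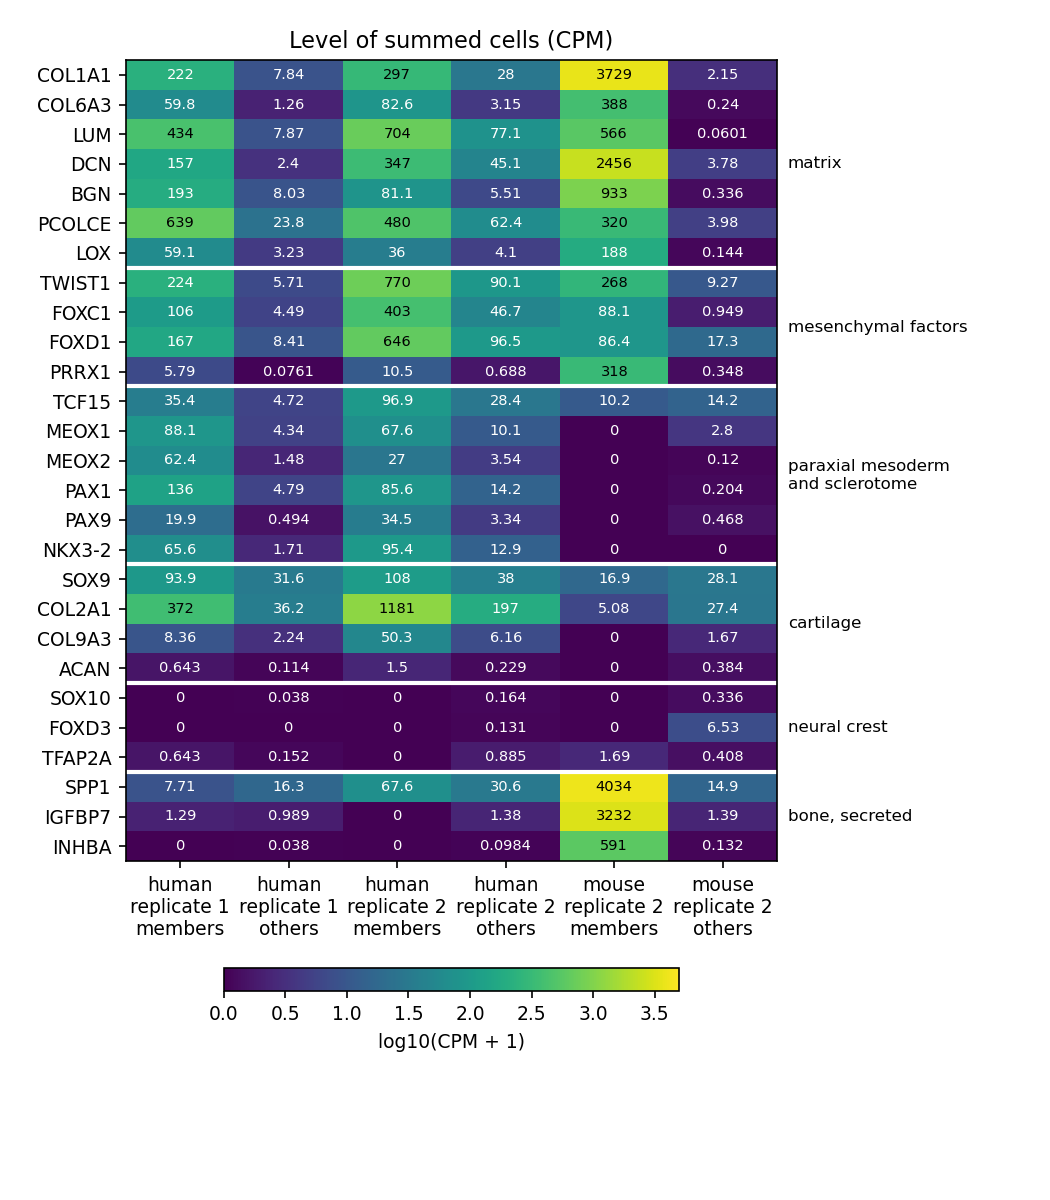
Level of summed cells (CPM, printed in each cell and coloured on a log10 scale) of matrix, transcription factor, cartilage, crest and secreted genes in members and others of human replicates 1 and 2 and mouse replicate 2. Matrix genes are high in all 3 member columns. PAX1, PAX9, NKX3-2, MEOX1 and MEOX2 are at 0 in the mouse members (PAX1 at 136, 85.6 and 0 CPM), where SPP1 and IGFBP7 reach 4034 and 3232 CPM in the mouse members.

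Genes of the paraxial mesoderm and its sclerotome rose in members of both human lines. Of 10 genes tested out of 11 on the list, 9 rose and 0 fell, beside 10.7% of all genes higher. Their median log2 fold change was 3.7. PAX1, a sclerotome factor, was at 136 and 85.6 CPM in members and 4.79 and 14.2 CPM in others (log2 fold change 3.77, edgeR adjusted p = 1.1e-29). Its partner PAX9 was at 19.9 and 34.5 CPM in members and 0.494 and 3.34 CPM in others. NKX3-2, which acts downstream of PAX1 and PAX9, was at 65.6 and 95.4 CPM in members and 1.71 and 12.9 CPM in others. These 3 factors were higher in members of both replicates. The somite factors MEOX1 and MEOX2 were at 88.1 and 67.6 CPM and at 62.4 and 27.0 CPM in members, against 4.34 and 10.1 CPM and 1.48 and 3.54 CPM in others. TCF15, which maintains the epithelium of the somite, was at 35.4 and 96.9 CPM in members and 4.72 and 28.4 CPM in others. UNCX, a factor of the posterior sclerotome, was at 16.1 and 23.3 CPM in members and 1.06 and 3.02 CPM in others. TBX6, which marks the earlier presomitic mesoderm, did not pass the test, at 1.93 and 1.5 CPM in members and 0.799 and 0.557 CPM in others. MSGN1, of the same stage, had 0 UMIs in members and in others of both replicates.

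Members were also counted by whether they held a UMI of these genes. With every cell thinned to 7000 UMIs, which left 112 of 121 and 73 of 78 members, PAX1 was seen in 45.5% and 28.8% of members, against 1.64% and 5.21% of others. In STMN2-rich neurons of the same files, which should lack PAX1, it was seen in 0 of 251 and 0 of 277 cells. Without thinning PAX1 was seen in 56.2% and 53.8% of members. In thinned members NKX3-2 was seen in 33.0% and 45.2%, PAX9 in 17.0% and 15.1%, and MEOX2 in 25% and 11.0%. In thinned others the shares were 0.767% and 7.93%, 0.219% and 2.57%, and 0.932% and 1.71%. Neurons held NKX3-2 in 0 of 251 and 10 of 277 cells (3.61%), so its background in human replicate 2 was not 0. PAX9 and MEOX2 were in 0 of 251 and 0 of 277 neurons. MEOX1 was seen in 47.1% of the thinned members with PAX1 and 26.2% of those without in human replicate 1, and in 33.3% and 25% in human replicate 2. The median thinned member held 3 UMIs of the paraxial mesoderm and sclerotome list in human replicate 1 (range 0 to 14) and 7 in human replicate 2 (range 1 to 18). The median among others was 0 in both.

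Cartilage genes rose in part. Of 13 tested out of 19, 9 rose and 0 fell (median log2 fold change 1.81), beside 10.7% of all genes higher and 12.5% lower. COL2A1, the main collagen chain of cartilage, was at 372 and 1181 CPM in members and 36.2 and 197 CPM in others. SOX9, the factor that drives cartilage and also acts in neural progenitors and crest, was at 93.9 and 108 CPM in members and 31.6 and 38.0 CPM in others. HAPLN1, which links aggrecan to hyaluronan, was at 23.8 and 11.3 CPM in members and 1.26 and 1.15 CPM in others. Several genes of cartilage matrix had few or no UMIs in members. ACAN, the aggrecan core protein, had 0.643 and 1.5 CPM in members and 0.114 and 0.229 CPM in others, which is 1 to 2 UMIs in each group of members. CHAD had 0 UMIs in members, MATN1 and UCMA likewise. COL9A1, a chain of collagen IX, was at 10.3 and 37.5 CPM in members and 4.83 and 12.4 CPM in others, and was seen in 4.46% and 20.5% of thinned members, 3.18% and 6.79% of others and 0 of 251 and 0 of 277 neurons. COL2A1 was seen in 83.9% and 93.2% of thinned members, and SOX9 in 42.9% and 45.2%. In thinned others COL2A1 was seen in 15.9% and 32.1%, and SOX9 in 17.9% and 21.3%. In neurons the shares were 0.398% and 1.81% for COL2A1, and 5.58% and 8.66% for SOX9. Of the members with SOX9, 87.5% and 97.0% also held COL2A1, and of those without SOX9, 81.2% and 90%.

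The counts in this paragraph stand beside 10.7% of all genes higher and 12.5% lower. Of 3 bone genes tested 0 rose and 1 fell. The gene that fell was ALPL, the alkaline phosphatase of mineralising and of stem cells. It was at 3.21 and 2.25 CPM in members and 34.1 and 20.4 CPM in others. SP7, IBSP, DLX5 and DMP1 had 0 UMIs in members of both replicates. Of 4 tendon genes 2 rose, FMOD and EGR1, while the tendon marker TNMD had 0 and 2.25 CPM in members. Of 9 dermal genes 6 rose and 2 fell, and those that fell were CRABP1 and SFRP2, both also expressed in neural cells. The dermal marker FAP was at 32.1 and 27.0 CPM in members and 0.723 and 4.33 CPM in others. TWIST2 was at 0 and 18.8 CPM in members and 0 and 2.16 CPM in others, so its call rested on human replicate 2, and DESeq2 did not make it (adjusted p = 0.82). PRRX1, a factor of limb and dermal mesenchyme, was low but higher in members, at 5.79 and 10.5 CPM against 0.076 and 0.688 CPM in others. Of 11 genes of the meninges list 10 rose and 1 fell. Several of these (LUM, DCN, FOXC1) are general mesenchyme genes, and PTGDS, more particular to meninges, was at 3.21 and 39.0 CPM in members and 0.304 and 0.721 CPM in others. Of 11 smooth muscle and pericyte genes 7 rose and 1 fell, ACTA2 being the gene that fell.

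The genes that define migrating neural crest were at or near 0 in members. SOX10 and FOXD3 had 0 UMIs in members of both replicates, which allows up to 1.93 and 2.25 CPM (3 counts of the members' total). In others they were at 0.038 and 0.164 CPM and at 0 and 0.131 CPM. TFAP2A had 1 UMI in members of human replicate 1 and 0 in human replicate 2, at 0.643 and 0 CPM, against 0.152 and 0.885 CPM in others. The summed crest list was at 167 and 293 CPM in members and 221 and 311 CPM in others, with 10 and 9 of its 19 genes at 0 UMIs in members. Of 10 crest genes tested 2 rose and 4 fell, beside 10.7% of all genes higher and 12.5% lower. The 2 that rose, SOX9 and ETS1, are also genes of cartilage and of mesoderm and endothelium. Of 6 epithelial genes tested 0 rose and 3 fell, and of 3 endothelial genes 1 rose and 2 fell, beside the same shares. DESeq2 called none of these genes. The epithelial gene EPCAM was at 3.21 and 4.51 CPM in members and 8.22 and 13.2 CPM in others. The endothelial gene CDH5 had 0 UMIs in members. At this depth these 3 crest genes were not detectably higher in members.

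The genes that fell most were those of neural cells. Of 11 progenitor genes tested 11 fell (median log2 fold change -5.80), and of 9 neuron genes 9 fell (median -4.36), beside 12.5% of all genes. The 10 lowest genes by rule were PPP1R17, PAX6, SST, NEUROG1, ELAVL2, OLIG1, FGFR3, OLIG2, DLK1 and NEUROD1. PAX6, a progenitor factor, had 0 UMIs in members of both replicates and was at 53.1 and 32.7 CPM in others, at least 27.5-fold and 14.5-fold lower in members against a floor of 3 counts per replicate. OLIG2, the factor of motor neuron progenitors, was at 2.57 and 0.751 CPM in members and 190 and 185 CPM in others. As members were chosen for 0 UMIs of SOX2, low levels of genes that go with SOX2 are not independent of the choice, and nor are high levels of genes that go with collagen. Against cells with at least 2 SOX2 UMIs, edgeR called 20.7% of 13067 genes, 10.4% higher and 10.3% lower. Those SOX2 cells included 5 and 85 that passed the collagen threshold in human replicates 1 and 2. In that comparison 9 of 10 paraxial mesoderm and sclerotome genes rose (median log2 fold change 4.19), as did 9 of 13 cartilage genes (median 1.71).

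The human lines differed in how many collagen-rich cells held SOX2. In human replicate 1, 11 of 132 cells past the collagen threshold held any SOX2 (8.33%), and in human replicate 2, 138 of 216 did (63.9%, exact 95% interval 57.1 to 70.3). Of the 138, 53 had 1 UMI, 72 had 2 to 5 and 13 had more. In neurons with at least 10 STMN2 UMIs, where SOX2 is normally off, 15.9% of human replicate 1 and 22.1% of human replicate 2 held a SOX2 UMI, at median depths of 8772 and 16163 UMIs against 12472.5 and 17587.5 in the collagen-rich cells. The share in collagen-rich cells of human replicate 1 was therefore at or below the share in neurons, and the share in human replicate 2 above it. Of these neurons, 33 of 460 and 54 of 417 held at least 2 SOX2 UMIs. Whether SOX2 in them was background was not tested.

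The SOX2-positive collagen-rich cells of human replicate 2 were not members, but several mesenchymal genes stood at like levels in them. Of the 138 cells, 85 held at least 2 SOX2 UMIs, so they also count among the cells with at least 2 SOX2 UMIs below. TWIST1 was at 770 CPM in members, against 773 CPM in these 138 cells and 83.2 CPM in cells with at least 2 SOX2 UMIs. FOXC1 was at 403, 382 and 43.1 CPM in the same order, and NKX3-2 at 95.4, 86.9 and 12.0 CPM. PAX1 was at 85.6 CPM in members (exact interval 70.6 to 103), lower than the 133 CPM (120 to 147) of the SOX2-positive ones. HES5, a Notch target of progenitors, was at 6.76 CPM in members, 58.5 CPM in the SOX2-positive collagen-rich cells and 1163 CPM in SOX2 cells at large. MKI67, a protein of dividing cells, was at 74.3 CPM in members and 200 CPM in the SOX2-positive collagen-rich cells. These cells come from 1 file, so the differences were not tested.

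**Figure D3:**
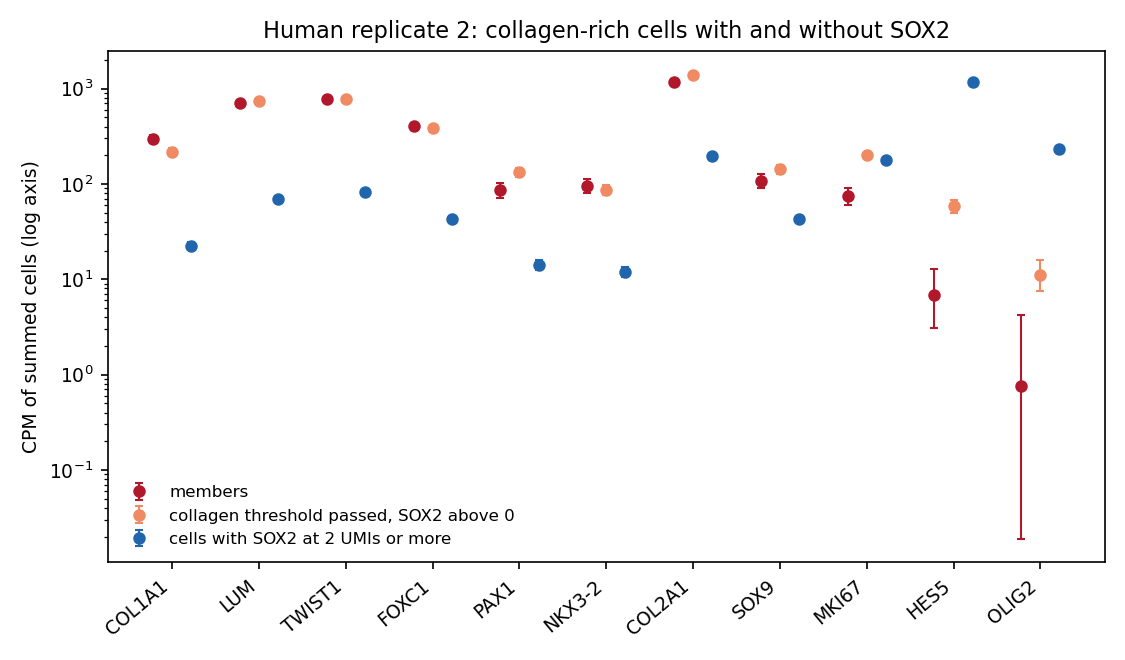
Level of summed cells (CPM, log axis) with exact 95% counting intervals for 11 genes in human replicate 2, in members, in cells past the collagen threshold with SOX2 above 0, and in cells with at least 2 SOX2 UMIs. The last 2 groups share 85 cells. The first 2 groups are close in TWIST1 (770 and 773 CPM) and FOXC1 and differ in MKI67 and HES5.

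The 2 human lines differed in the makeup of their members. FOXC2, a factor of sclerotome and of other mesoderm, was at 7.71 CPM in members of human replicate 1 and 198 CPM in those of human replicate 2 (others 0.114 and 19.5 CPM). It was seen in 3.57% of thinned members of human replicate 1 and 61.6% of those of human replicate 2. FOXD1, of kidney stroma and meninges, was at 167 and 646 CPM in members and 8.41 and 96.5 CPM in others. In the other direction, IGF2, a fetal growth factor, was at 442 CPM in members of human replicate 1 and 37.5 CPM in those of human replicate 2 (others 56.7 and 11.9 CPM). FST, which binds activin, was at 57.9 and 1.5 CPM in members and 7.91 and 4.95 CPM in others, so its call rested on human replicate 1 (DESeq2 adjusted p = 0.67). Differences between lines have no replicate, and the 2 files also differ in their gene annotation.

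Muscle transcripts in members came in 2 forms. TNNI1, the slow skeletal troponin I, was at 31.5 and 95.4 CPM in members and 33.3 and 15.5 CPM in others. It was seen in 20.5% and 27.4% of thinned members, against 1.32% and 4.36% of others and 0 of 251 and 3.61% of neurons. Unthinned, 29 of 121 and 33 of 78 members held it. TNNC2, the fast skeletal troponin C, was in 2 of 121 and 3 of 78 members. It was at 1.29 and 108 CPM in members and 39.6 and 16.5 CPM in others. In human replicate 1 no member held more than 4 TNNI1 UMIs or more than 1 TNNC2 UMI, while 14 others held at least 10 TNNC2 UMIs and 786 of the 876 TNNI1 UMIs of others. In human replicate 2, 143 of the 144 TNNC2 UMIs of members lay in 2 cells, of which the larger had 106 TNNC2, 97 TTN (titin), 46 MYF6 (a myogenic factor) and 48 TNNI1 UMIs beside 17 COL1A2 and 8 COL3A1 UMIs. Thinned to 3500 UMIs, TNNI1 was seen in 6.67% and 25.6% of members, so its share depended on depth in human replicate 1. The member with 106 TNNC2 UMIs had 39133 UMIs in all, the most of any human member; whether it was a doublet was not tested beyond Scrublet, which did not mark it.

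Several muscle calls rested on those 2 cells. Of 17 muscle genes tested 6 rose and 5 fell (median log2 fold change 0.06), beside 10.7% of all genes higher and 12.5% lower. TTN had a log2 fold change of 2.64 with all members (edgeR adjusted p = 6.2e-07) and of -3.47 without the 2 cells. DES, the muscle intermediate filament, had 1.01 with all members and -3.90 without them, and TNNC2, which did not pass the test, 0.87 and -4.64. DESeq2 called none of the 6 genes that rose. TNNI1 had a log2 fold change of 1.49 with all members, and 0.99 without the 2 cells, and its call was lost in DESeq2 (adjusted p = 0.13). MYF6 was at 1.93 and 56.3 CPM in members and 4.18 and 3.61 CPM in others. MYL1 fell, at 0.643 and 2.25 CPM in members and 30.6 and 14.9 CPM in others. MYF5 had 0 UMIs in members of both replicates, and MYOD1 had 0.643 and 0 CPM in members and 0.228 and 0.131 CPM in others.

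**Figure D4:**
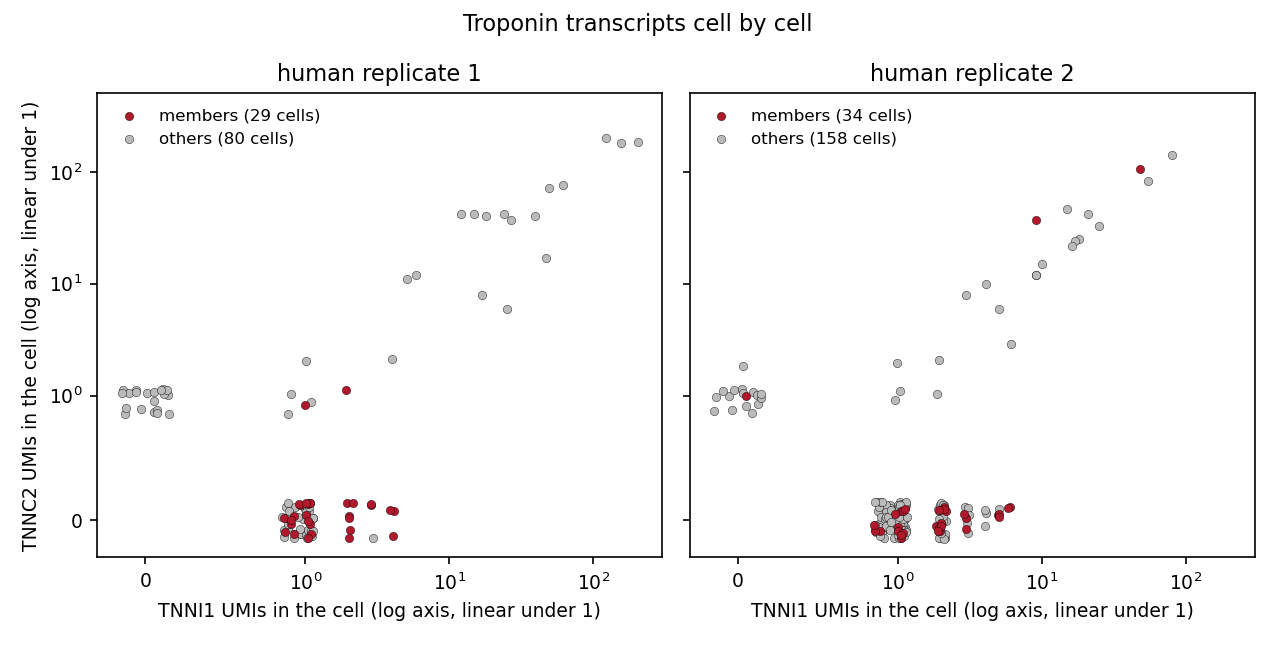
TNNI1 (x axis) and TNNC2 (y axis) UMIs of each cell that held either transcript, on log axes that are linear under 1, in members and others of human replicates 1 and 2; points are jittered. Members lie along the bottom at 6 TNNI1 UMIs or fewer with no TNNC2, apart from a few that include the 2 of human replicate 2 with 106 and 37 TNNC2 UMIs.

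HOX genes record the position of a cell along the body axis, low numbers at the hindbrain and higher numbers further back. Of 27 HOX genes tested 2 rose and 16 fell in members, beside 10.7% of all genes higher and 12.5% lower. Their median log2 fold change was -1.05. DESeq2 called 1 higher and 10 lower, beside 751 and 616 of all 13985 genes. The difference was uneven over the clusters. HOXC8 was at 1.29 and 6.76 CPM in members (2 and 9 UMIs) and 157 and 267 CPM in others. HOXC9 was at 1.93 and 0 CPM in members (3 and 0 UMIs) and 98.1 and 71.7 CPM in others. HOXA9 was at 3.21 and 0 CPM in members and 40 and 23.6 CPM in others, and HOXB1, a hindbrain gene, at 0 and 1.5 CPM in members and 42.2 and 31.0 CPM in others. HOXB9, of the same number group as HOXC9, was at 184 and 87.9 CPM in members and 341 and 333 CPM in others. HOXB7 was at 36.0 and 45.1 CPM in members and 46.8 and 48.7 CPM in others and did not pass the test.

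HOXC8 and HOXC9 lie close together on chromosome 12 (GRCh38.p14, 54008985 to 54012769 and 54000161 to 54003337), and HOXB9 lies on chromosome 17 (48621156 to 48626358). HOXC8 was seen in 0.893% and 2.74% of thinned members, against 50.8% and 51.2% of others. HOXB9 was seen in 70.5% and 34.2% of thinned members, against 81.8% and 81.3% of others. HOXC8 to HOXC9 together were at 3.21 and 6.76 CPM in members and 256 and 338 CPM in others. HOX8 and HOX9 genes of cluster B were at 266 and 130 CPM in members and 465 and 411 CPM in others. Neurons had more HOX8 and HOX9 RNA (1708 and 1844 CPM) than all others together (776 and 798 CPM). Against cells with at least 2 SOX2 UMIs, the log2 fold changes of HOXC8 and HOXC9 in members were -4.74 and -5.70. The part of neurons in the difference from others was not tested. HOXB5 was higher in members with a log2 fold change of 0.64, a direction that turned to -0.36 when others were limited to cells with 0 SOX2 UMIs, which was the opposite direction. HOXC4, HOXC5 and HOXC6 share exons, and the levels of HOXC4 and HOXC5 differed between the files, which use different annotations (members 0 and 31.5 CPM for HOXC4, 59.8 and 3.75 CPM for HOXC5), so the rise called for HOXC5 is uncertain. HOX10 to HOX13 genes had 0 UMIs in human members (exact upper limits 2.37 and 2.77 CPM). In others they summed to 0.609 and 0.328 CPM, so members and others could not be told apart at this depth.

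**Figure D5:**
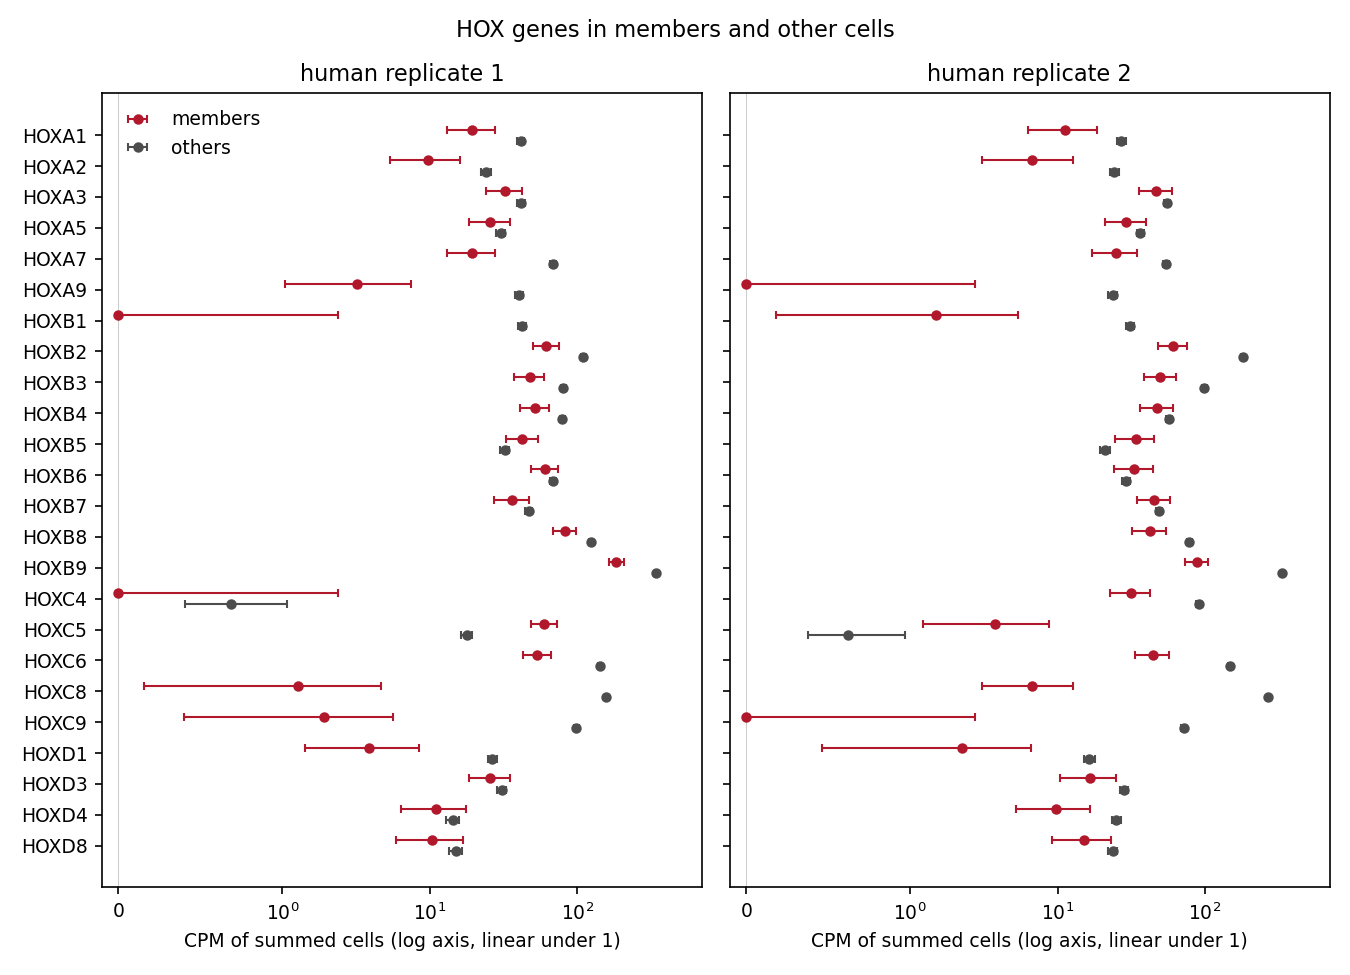
Level of summed cells (CPM, log axis that is linear under 1) of 24 HOX genes in members and others of human replicates 1 and 2, with exact 95% counting intervals. Members lie far left of others for HOXA9, HOXB1, HOXC8 and HOXC9 and close to them for HOXA3 and HOXB4 to HOXB7.

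A smaller share of members than of SOX2 cells held transcripts of dividing cells. Members were chosen for 0 SOX2 UMIs, so this contrast is not independent of the choice. In human replicate 2 the rule left out 138 of 216 collagen-rich cells, those that held SOX2. At least 10 UMIs of 38 G2 and M phase genes, counted in cells thinned to 7000 UMIs, were held by 29.5% of members in human replicate 1 (exact interval 21.2 to 38.8) and 28.8% in human replicate 2 (18.8 to 40.6). In others the shares were 35.2% and 39.3%, in cells with at least 2 SOX2 UMIs 47.6% and 51.4%, and in neurons 0 of 251 and 0 of 277. In the SOX2-positive collagen-rich cells of human replicate 2, which overlap those SOX2 cells, it was 51.1% (42.3 to 59.9). Of 38 G2 and M phase genes tested in the edgeR fit 0 rose and 18 fell against others, and 32 fell against cells with SOX2. Among all genes, 10.7% were higher and 12.5% lower against others, and 10.3% were lower against cells with SOX2. Of 28 S phase genes 1 rose and 10 fell against others. DESeq2's Wald test called fewer against others. It called 0 higher and 3 lower of the G2 and M phase genes and 0 higher and 1 lower of the S phase genes. Among all 13985 genes it called 751 higher and 616 lower, so its S phase count was not above that background. The D cyclins differed: CCND1 fell by 3.75 on the log2 scale, to 24.4 and 36.8 CPM in members against 444 and 425 CPM in others. CCND2 rose by 0.86, with 146 and 552 CPM in members and 95.5 and 297 CPM in others. Of 8 genes of the CDK inhibitor and G1 list 1 rose and 5 fell, and DESeq2 called 1 higher and 1 lower.

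Signalling genes of mesenchyme rose in part. The WNT, BMP and TGF-beta pathway list also holds IGF2 and genes of proteins that bind insulin-like growth factors. Of its 24 genes tested 13 rose and 4 fell (median log2 fold change 1.78). Among all genes, 10.7% were higher and 12.5% lower. Among ligands, BMP4 was at 25.7 and 44.3 CPM in members and 1.18 and 5.80 CPM in others, TGFB1 at 36.6 and 60.1 CPM in members and 8.06 and 7.15 CPM in others. RSPO3, which strengthens WNT signals, was at 17.4 and 12.0 CPM in members and 0.532 and 2.07 CPM in others. Among inhibitors and binders, FRZB, a secreted WNT antagonist, was at 301 and 147 CPM in members and 27.1 and 30.6 CPM in others. IGFBP5, which binds insulin-like growth factors, was at 367 and 1237 CPM in members and 42.7 and 217 CPM in others. SFRP2, another WNT antagonist, fell to 24.4 and 41.3 CPM in members against 206 and 385 CPM in others. Among targets, TGFBI was at 234 and 114 CPM in members and 13 and 11.4 CPM in others, and ID1 fell to 88.7 and 47.3 CPM in members against 555 and 255 CPM in others. Of 12 genes of retinoic acid and hedgehog signalling 5 rose and 3 fell. PTCH1 and HHIP, both known targets of SHH, were among those that rose: PTCH1 was at 76.5 and 287 CPM in members and 68.6 and 169 CPM in others, and its call was lost in DESeq2 (adjusted p = 0.067). HHIP was at 22.5 and 48.1 CPM in members and 6.62 and 17.8 CPM in others. ALDH1A2, which makes retinoic acid, was at 19.3 and 15.8 CPM in members and 0.532 and 5.11 CPM in others.

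The 28 mouse members had another profile than the human ones. All came from mouse replicate 2, so no test was made, and each level below is that of the summed cells with an exact 95% counting interval where given. Matrix genes were very high: COL1A1 was at 3729 CPM in members (3575 to 3888) and 2.15 CPM in others, and DCN at 2456 CPM in members and 3.78 CPM in others. PRRX1 was at 318 CPM in members and 0.348 CPM in others. SPP1 (osteopontin) was at 4034 CPM in members and 14.9 CPM in others, MGP, the matrix Gla protein, at 2668 CPM and 0.204 CPM, and IGFBP7 at 3232 CPM and 1.39 CPM. INHBA, a subunit of activin, was at 591 CPM in members and 0.132 CPM in others, and MMP3, a matrix protease, at 659 CPM and 0.036 CPM. IGFBP7 had 2 and 0 UMIs in human members, at 1.29 and 0 CPM, and INHBA 0 and 0 UMIs.

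Of the 11 genes of the paraxial mesoderm and sclerotome list, 7 had 0 UMIs in mouse members. PAX1, PAX9, NKX3-2, MEOX1 and MEOX2 were among those with 0 UMIs in mouse members, which allows up to 5.08 CPM each, against the 19.9 to 136 CPM of human members. In others of mouse replicate 2 PAX1 was at 0.204 CPM and MEOX1 at 2.80 CPM. The list summed to 117 CPM in mouse members and 20.8 CPM in others, and 52 of the 69 UMIs of members were of FOXC1, at 88.1 CPM in members and 0.949 CPM in others. FOXC2 was at 16.9 CPM in mouse members (10 UMIs) and 0.601 CPM in others, and TCF15 at 10.2 CPM (6 UMIs) and 14.2 CPM. COL2A1 was at 5.08 CPM in mouse members and 27.4 CPM in others, the other direction to human. The HOX genes differed as well. HOX10 to HOX13 genes summed to 84.7 CPM in mouse members and 0.60 CPM in others, with HOXA10 at 30.5 CPM (18 UMIs) and HOXD11 at 18.6 CPM (11 UMIs), while the same genes were at 0 in human members. HOXB8 was at 1.69 CPM in mouse members and 117 CPM in others. The cell cycle inhibitors CDKN1A and CDKN2A were at 1218 and 759 CPM in members, against 108 and 55.1 CPM in others. At least 10 UMIs of G2 and M phase genes were held by 14.8% of thinned mouse members and 73.6% of others.

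The sex-linked transcripts of the mouse members did not match those of the other mouse cells. Xist, the RNA of the silenced X chromosome (XIST in upper case here), was at 280 CPM in members (165 UMIs) and 0.553 CPM in others. It was held by 10 of 28 members (35.7%) and 30 of 2678 others (1.12%). At least 1 UMI of 4 Y-linked genes was held by 15 of 28 members and by 2290 of 2678 others. No member held both, and 3 held neither. The 9 members with at least 5 Xist UMIs had 0 UMIs of the Y-linked genes. Others with neither numbered 385, and 27 held both. Where the Xist-positive members came from was not tested.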

How the data were processed

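Single-cell 3' RNA-seq gave 4 tables of raw UMI counts per gene and cell, which the authors deposited from 3 libraries; the mixed library had a human and a mouse table. Per the submitters' processing notes Cell Ranger 3.1.0 with the builds hg38 and mm10 was used, and no normalization was applied to the deposited counts as far as their whole-number values show. The human tables list 32739 and 56832 entries; 29572 symbols in both were used. The tables held 2407, 2044, 1881 and 2783 cells (human replicates 1 and 2, mouse replicates 1 and 2) and 28577630, 32803173, 38166382 and 83969715 UMIs.

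Symbols were put in upper case. Cells were kept with at least 1000 UMIs, at least 500 genes and at most 10% mitochondrial UMIs, and the 60 barcodes found in both tables of the mixed library were dropped. Doublets were called with Scrublet (scanpy 1.11.5, expected rate 5%, seed 1) and kept. Counts were summed over members and over others of each human table and tested with edgeR 4.0.16 (quasi-likelihood, TMM, filterByExpr, R 4.3.3), with the table as a block and an adjusted p threshold of 0.05; DESeq2 1.42.0 was an alternative. The block pairs members and others of the same line and library. No p-value measures the spread between cultures. In simulated data for the comparison with others (13688 genes) 59% of genes changed by 1 and 94% of those changed by 2 on the log2 scale were recovered, with 5 false calls. The simulation changed 100 genes of each size and held no difference between the lines. Its recovery and false calls are therefore not those of the real comparison. Shares of cells were taken after thinning each cell to 7000 UMIs, and their intervals are exact 95% binomial ones. Intervals of CPM are exact Poisson ones, and floors are 3 counts; all cover counting error only. Neurons, as a background class, had SOX2 at 0 and at least 10 STMN2 UMIs and were chosen after seeing the data.

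The members and gene lists were chosen with earlier results of these data known. Genes named were those of the fixed lists, TNNI1, TNNC2, and the 15 highest and 10 lowest by log2 fold change among those past the threshold, alike in direction in both human tables and at 20 CPM or more in the higher group of both. MGP and MMP3 in mouse members were chosen after their values were seen. Xist and the Y-linked genes, used for the mouse cells, were not on the fixed lists either. Positions are from RefSeq's GRCh38.p14.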

Additional observations from a re-analysis of the deposited data

Results flagged for a closer look

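For 6 gene lists the summed level in members relative to others went one way in both human replicates and the other way in mouse replicate 2. The differences were not tested, and a single mouse library held members. The list of CDK inhibitors and G1 genes had a log2 ratio of members over others of 1.09 in mouse replicate 2, against -1.27 and -0.33 in human replicates 1 and 2. The dermal fibroblast list had 0.97 in mouse replicate 2, against -0.81 and -2.21 in the human replicates. Of 9 genes of that list tested in the human comparison 6 rose and 2 fell (edgeR, median log2 fold change 3.14). Among all genes edgeR called 10.7% higher and 12.5% lower. DESeq2 called 5 of the list higher and 1 lower, beside 751 and 616 of all 13985 genes. The human sums therefore went against the gene count. The 2 that fell were CRABP1, at 76.5 and 7.51 CPM in human members and 195 and 554 CPM in others, and SFRP2, at 24.4 and 41.3 CPM in members and 206 and 385 CPM in others. The handling stress list had 1.36 in mouse replicate 2, against -0.34 and -0.12. The endothelium list had 1.29, against -2.55 and -0.51, but rested on 3 UMIs in mouse members and on 3 and 11 UMIs in human members, so its directions were not distinguishable at this depth. CDH5 had 0 UMIs in members of all 3 files. The hypoxia list had 0.22, against -1.37 and -0.56, and the neural crest list 0.050, against -0.41 and -0.08. The crest list was at 180 CPM in mouse members (106 UMIs) and 174 CPM in mouse others. In human replicate 2 it was at 293 CPM in members (390 UMIs) and 311 CPM in others. Its directions in these 2 files were not distinguishable at this depth.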

How the results depend on the processing

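Human counts of higher and lower genes were 1493 and 1743. They were 751 and 616 with DESeq2's Wald test, and with no replicate block edgeR called 0 higher and 0 lower, with 1723 genes at an unadjusted p under 0.05; the pairing of members and others within a line is what the block uses. Against SOX2 cells the Wald test called 747 higher and 583 lower. The member share in human replicate 1 was 6.30% with at least 1 UMI of each collagen gene, 2.27% with at least 5 and 3.98% on thinned cells. In human replicate 2 it was 3.01% with at least 5 UMIs, 11.8% with no condition on SOX2 and 6.11% on thinned cells. The cause of these shifts was not tested.

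Directions reversed for few named genes. DES had a log2 fold change of -0.23 with DESeq2, -0.12 with others limited to 0 SOX2 UMIs, -0.087 with no condition on SOX2 and -3.90 without members of 10 or more TNNC2 UMIs. Without those members TNNC2 had -4.64, TNNT1 -1.52 and TTN -3.47, and TTN had -0.44 with DESeq2. HOXB5 had -0.36 and HOXB6 -0.82 with others limited to 0 SOX2 UMIs. Leaving out replicate 2 or replicate 1 leaves a single line and no test. The values then ranged over -4.70 to 0.77 for ACTC1, -3.29 to 2.60 for DES, -1.64 to 2.97 for FST, -0.95 to 3.91 for MYF6, -1.17 to 3.17 for TNNT1 and -4.96 to 4.08 for TTN. Of the other settings of 97 named genes, 1017 values kept direction and side of the threshold, 131 lost the call and 4 gained it, all 4 for TNNC2. Of the shares of members with a UMI, recomputed at 3500 UMIs a cell or without thinning, 82 left the exact interval of the share at 7000 UMIs and 80 did not. Median log2 fold changes of the gene lists moved by more than the SD between the 2 lines' medians in 70 values and by less in 266, and with a single line in 20 and 36. The comparison with KRT8 and KRT18 rich cells was not run, as the human tables held 3 and 0 such cells. With 2 lines and 199 human members, genes at a few UMIs cannot be ranked.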
